A study of Mus musculus with 16 samples.

Results

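Nduf genes encode proteins of respiratory complex I, and every gene symbol in the raw count table that begins with Nduf was taken, which gave 44 of the 13320 genes. Symbols that begin with Ndufaf, 7 in all, are assembly factors, and the other 37 were counted as subunits. The RNA was of quadriceps muscle of CD2F1 mice, males aged 8 weeks, in 4 groups of 4 libraries. Splenic C26 mice received cells of the C26 mouse colon carcinoma line by injection into the spleen, a route meant to seed the liver, and sham mice were operated on and given saline. Subcutaneous C26 mice received the same cells under the skin, and control mice carried no tumour, with nothing further said of what they were given. The labels do not say whether the libraries of a group came from separate mice, so p-values speak of the spread among libraries. Tissue was taken some weeks after the intervention, their number not given in the sources used here. Sample titles of splenic C26 and sham share 1 prefix and those of subcutaneous C26 and control another, so each tumour group has its own tumour-free group.

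Complex I sits in the inner mitochondrial membrane, takes electrons from NADH, passes them through a chain of iron-sulfur clusters to ubiquinone and pumps protons. Its matrix arm holds an NADH-oxidising module and a quinone-reducing module, and its membrane arm holds the proton pumps, whose core proteins are encoded in mitochondrial DNA. All Nduf genes are nuclear, their proteins are imported, and assembly factors join the modules without staying in the finished enzyme. Skeletal muscle relies on the complex for oxidative work, above all in slow and other mitochondria-rich fibres. Factors long known to bind promoters of respiratory chain genes include NRF1, GABPA, YY1 and the oestrogen-related receptor ESRRA.

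The 44 genes lay on 16 chromosomes, 6 of them on chromosome 17 and 2 on X, by mm10 coordinates. RefSeq promoter windows (GRCm38.p6, 250 bases before to 50 after the start) were at hand for 38 of the 44 genes, with 40 windows in all. Ndufa2, Ndufa4l2, Ndufaf6, Ndufb9 and Ndufs1 were among those with none. Windows of 4 genes are shown because their transcripts behaved differently: Ndufb10 and Ndufb8 were lower in both tumour comparisons, Ndufaf4 passed in neither, and Ndufa7 was the only member that rose. They are Ndufb10 at chr17:24724374-24724673 (minus strand), Ndufb8 at chr19:44555393-44555692 (minus), Ndufaf4 at chr4:24897833-24898132 (plus) and Ndufa7 at chr17:33824322-33824621 (plus). Each is written 5′ to 3′ along the gene, and capitals mark the letters TGCGCA, a part of the NRF1 motif, or AAGATGG, the core of the YY1 motif.
Ndufb10: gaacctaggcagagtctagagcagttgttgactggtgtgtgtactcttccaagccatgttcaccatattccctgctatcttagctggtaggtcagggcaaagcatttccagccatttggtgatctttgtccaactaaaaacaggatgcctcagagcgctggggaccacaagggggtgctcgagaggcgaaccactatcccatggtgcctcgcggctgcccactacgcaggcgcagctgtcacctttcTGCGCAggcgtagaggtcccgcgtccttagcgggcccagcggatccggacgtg
Ndufb8: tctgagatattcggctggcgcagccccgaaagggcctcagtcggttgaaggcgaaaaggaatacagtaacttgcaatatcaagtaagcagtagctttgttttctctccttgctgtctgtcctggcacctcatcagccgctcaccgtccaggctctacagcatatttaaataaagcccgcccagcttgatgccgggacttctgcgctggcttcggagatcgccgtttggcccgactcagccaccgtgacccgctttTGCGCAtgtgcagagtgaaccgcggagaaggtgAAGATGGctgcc
Ndufaf4: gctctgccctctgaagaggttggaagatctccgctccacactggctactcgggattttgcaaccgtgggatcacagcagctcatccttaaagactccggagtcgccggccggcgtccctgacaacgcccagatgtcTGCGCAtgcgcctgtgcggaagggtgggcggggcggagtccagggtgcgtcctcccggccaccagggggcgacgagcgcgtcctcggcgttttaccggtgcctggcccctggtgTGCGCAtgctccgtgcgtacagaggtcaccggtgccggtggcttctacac
Ndufa7: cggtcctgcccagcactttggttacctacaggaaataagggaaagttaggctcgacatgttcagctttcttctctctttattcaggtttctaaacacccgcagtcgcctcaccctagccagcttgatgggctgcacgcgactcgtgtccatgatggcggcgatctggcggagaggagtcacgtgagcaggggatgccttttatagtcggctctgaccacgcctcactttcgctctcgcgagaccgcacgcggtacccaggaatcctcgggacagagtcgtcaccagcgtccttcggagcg
Motif letters were searched on both strands. TGCGCA was in 27.5% of the Nduf windows, against 12.9% of the windows of genes in the count table and 7.76% of all windows. AAGATGG was in 17.5% of Nduf windows, 6.8% of those of genes in the table and 6.34% of all. The GABPA letters CCGGAAG were in 12.5% of Nduf windows, 16.1% of those of genes in the table and 8.86% of all, and the ESRRA letters AAGGTCA in 5% (2 windows, Ndufb2 and Ndufb4), 3.3% and 4.72%. Ndufaf4 held 2 TGCGCA matches, Ndufb10 and Ndufb8 held 1 each, and neither window of Ndufa7 held any of the 4 motifs. A match here describes letters and no binding was measured.

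Levels were compared between genes as CPM (counts scaled to the library total) per kilobase of the main transcript. In control muscle, subunits had a median of 151 CPM per kb, with Ndufa4 highest at 491, then Ndufb8 at 411, Ndufb9 at 400.2, and with Ndufb10 at 307. Assembly factors were far lower, with a control median of 11.1 CPM per kb and a range of 6.11 for Ndufaf3 to 28.2 for Ndufaf5. The subunits closest to those levels were Ndufb4 at 29.0, Ndufab1 at 20.1, Ndufb2 at 15.2 and Ndufa4l2, the lowest of all at 6.02. These values depend on the transcript length chosen. Ndufab1 and Ndufb2 were scaled to 3.479 and 4.371 kb, and averaged 69.7 and 66.3 CPM in control. Ndufb6, scaled to 0.659 kb, averaged 67.85 CPM there and stood at 103 CPM per kb. Every one of the 44 genes had at least 59 counts in every library, and for the lowest of them, such as Ndufa4l2 and Ndufaf2, counting error adds to the spread between libraries. Libraries held 25.9 to 34.9 M counts on genes.

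Nduf transcripts took a smaller share of the muscle library in every tumour-bearing sample. Together they made up 0.430% to 0.476% of raw counts in splenic C26 libraries and 0.629% to 0.714% in sham libraries. They made up 0.350%, 0.337%, 0.510% and 0.330% in subcutaneous C26 replicates 1 to 4, and 0.587% to 0.702% in control libraries. By this share neither tumour group overlapped its own tumour-free group. Values below are CPM after TMM scaling, which corrects for shifts in composition, and fold changes are log2 from edgeR's quasi-likelihood fit of all 16 libraries. The standard error beside a fold change was derived from its test, as the absolute log2 fold change divided by the square root of the F statistic. A gene passed at a Benjamini-Hochberg adjusted p under 0.05 over 13320 genes. In bulk muscle, fewer cells of a type and less RNA per cell cannot be told apart.

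**Figure D1:**
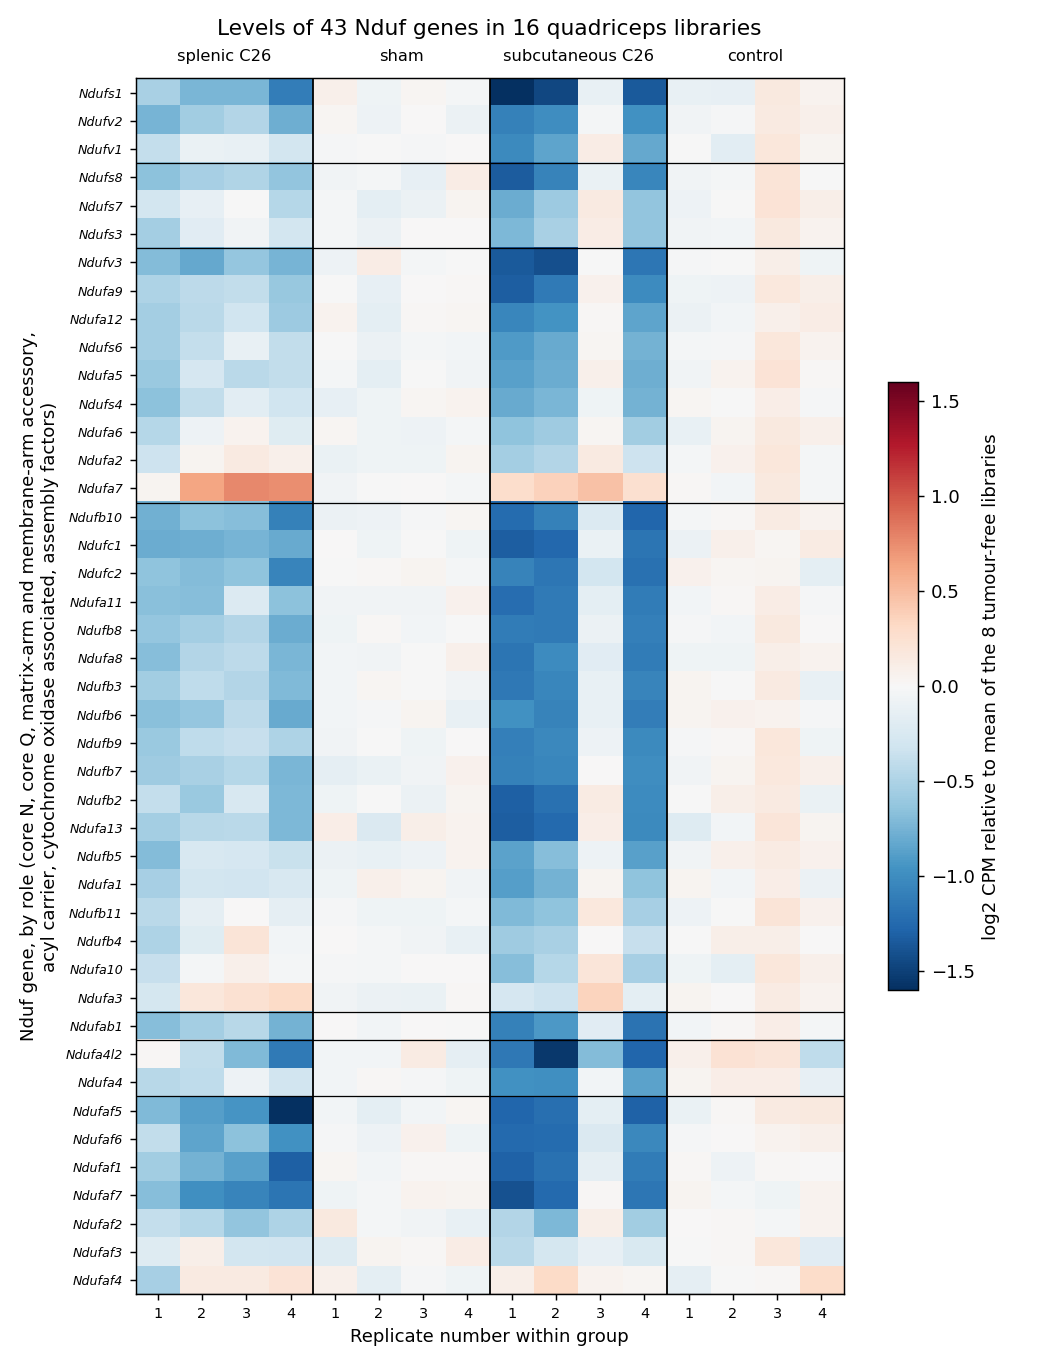
Heat map of log2 CPM of 43 Nduf genes (rows, grouped by role) in the 16 libraries (columns, by group), relative to the mean of the 8 tumour-free libraries. Blue is lower and red higher. Most rows are blue in splenic C26 libraries and in subcutaneous C26 replicates 1, 2 and 4, subcutaneous C26 replicate 3 is close to the tumour-free libraries, and Ndufa7 is red in both tumour groups.

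In splenic C26 muscle 14 of 37 subunits (37.8%) and 5 of 7 assembly factors (71.4%) fell relative to sham, and Ndufa7 rose. Over all genes tested 23.9% fell and 28.1% rose (52.0% in either direction). The share of subunits called lower stood near that of all genes in 2 other fits, at 21.6% beside 18.5% without splenic C26 replicate 4 and at 27% beside 26% without 4 libraries that hold transcripts of other tissues, so no excess over the background is claimed for splenic C26. The median log2 fold change was -0.45 for subunits and -0.67 for assembly factors, against -0.03 for all genes, and the median subunit stood at 73.3% of its sham mean. The other 22 subunits and 2 assembly factors did not pass. Groups did not overlap, with every splenic C26 library below every sham library, for 26 subunits and 5 assembly factors, against 21.1% of all genes. In subcutaneous C26 muscle 32 of 37 subunits (86.5%) and 4 of 7 assembly factors (57.1%) fell relative to control, and none of the 44 rose, against 23.1% lower and 27.0% higher over all genes. The medians were -0.74 for subunits and -0.83 for assembly factors, against -0.02 for all genes, and the median subunit stood at 60% of its control mean. Ndufa2, Ndufa3, Ndufa7 and Ndufa10 were among the 5 subunits that did not pass. Only 14 subunits and 3 assembly factors had all 4 subcutaneous C26 libraries below all control libraries, against 20.7% of all genes.

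The 2 comparisons use separate tumour-free groups within 1 fit, and 14 subunits and 4 assembly factors fell in both. A further 18 subunits passed in subcutaneous C26 without passing in splenic C26, and Ndufaf2 passed in splenic C26 without passing in subcutaneous C26. The share of all genes that fell in both, or in 1 alone, is not given here, so no excess is claimed for these counts. Across the 44 genes the 2 sets of log2 fold changes ran in much the same order (Pearson r = 0.898, Spearman rho = 0.896), as a description over genes that share libraries and are no independent replicates. Size of change was only weakly related to abundance: with the mean log2 CPM of the tumour-free libraries r was 0.130 for splenic C26 and 0.038 for subcutaneous C26.

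**Figure D2:**
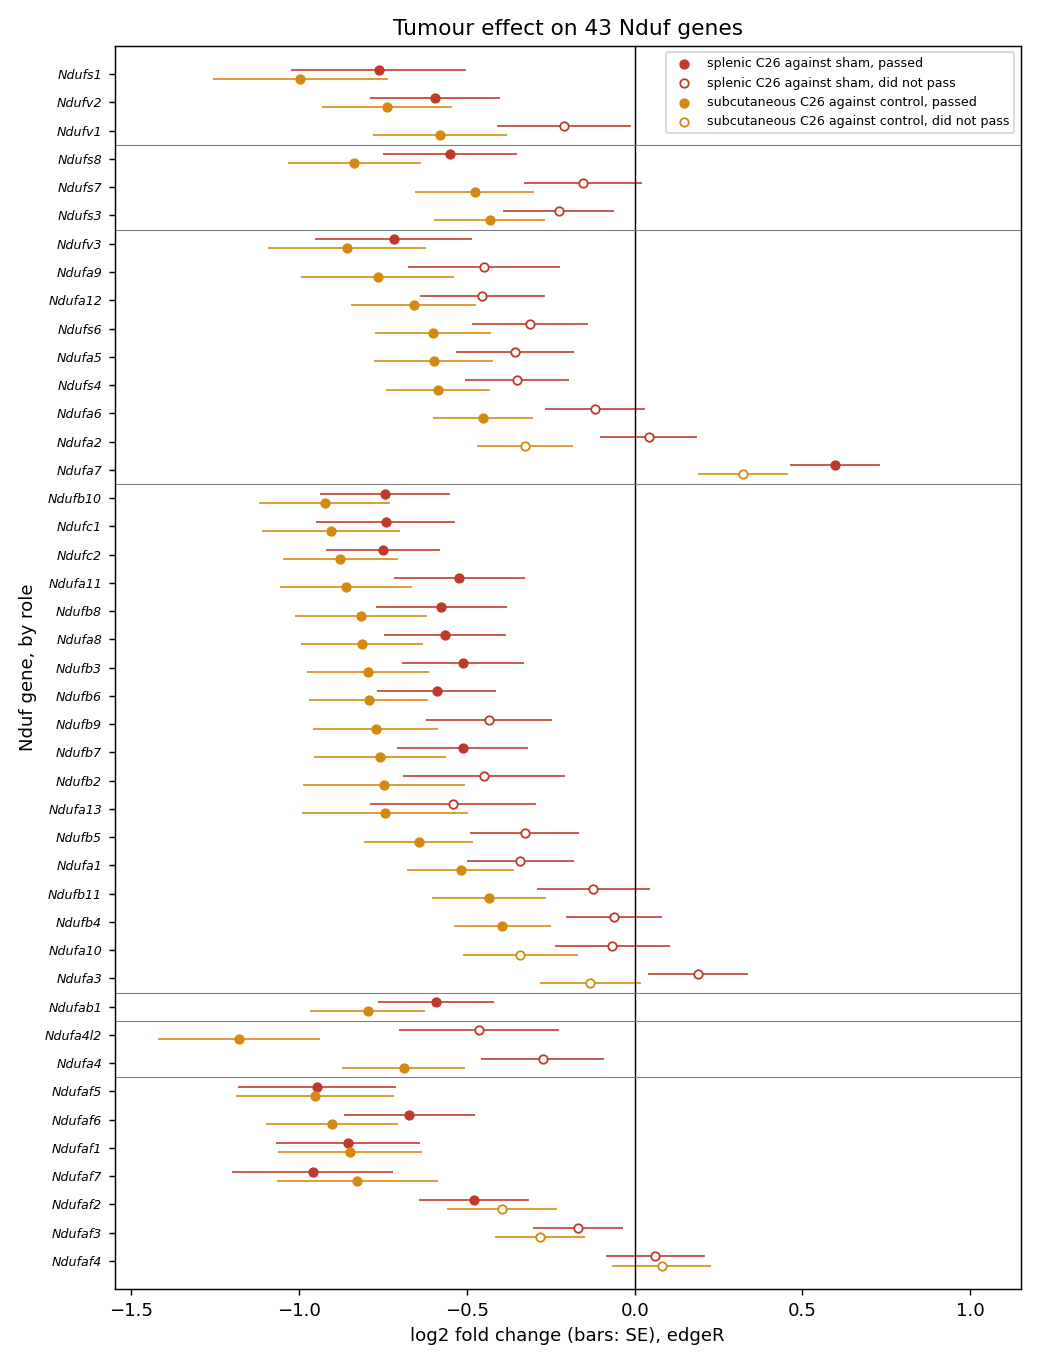
log2 fold change (points) with standard error (bars) of 43 Nduf genes for splenic C26 against sham (red) and subcutaneous C26 against control (orange), grouped by role as in the heat map. Filled points passed at adjusted p under 0.05. Most points lie left of 0, the subcutaneous C26 point is usually the more negative one among subunits, and among assembly factors the pairs lie close together.

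The libraries of a tumour group were not alike. Subcutaneous C26 replicate 3 stood at the control level after scaling: its median subunit was 0.27 above the 16-library mean on the log2 scale, beside -0.72, -0.65 and -0.62 in replicates 1, 2 and 4 and 0.27 to 0.45 in control libraries. In that library 14 subunits and 3 assembly factors were below every control library and 4 subunits and 1 assembly factor above every one, while in each of the other 3 libraries 35 or 36 subunits and 6 assembly factors were below. These counts per library were made for Nduf genes alone, so they are not set against the share of all genes. Without replicate 3 the subcutaneous C26 medians were -1.06 for subunits and -1.19 for assembly factors, with 35 subunits lower beside 28% of all genes, and since the fit shares 1 estimate of spread the splenic C26 count became 25 subunits, beside 26.6% of all genes. Splenic C26 replicates 1 to 4 had subunit medians of -0.27, -0.09, -0.05 and -0.27, against 0.23 to 0.28 in sham libraries, with no overlap. Without splenic C26 replicate 4 the number of subunits called lower was 8 (21.6%, beside 18.5% of all genes). Splenic C26 replicates 1 and 3, subcutaneous C26 replicate 4 and control replicate 1 were left out together for transcripts of other tissues. The choice was made after seeing the data, and the 12 libraries kept are not free of such transcripts. Hepatocyte markers summed to 249 and 318 CPM in control replicates 2 and 4, which were kept, against 122 CPM in control replicate 1. Neutrophil markers summed to 28.2 and 24.9 CPM in subcutaneous C26 replicates 1 and 2, also kept. In these 12 libraries 10 subunits (27%) and 4 assembly factors were lower in splenic C26, beside 26% of all genes, and 25 subunits (67.6%) and 4 assembly factors in subcutaneous C26, beside 21% of all genes. The number of subunits lower in splenic C26 also moved with scaling, being 26 with upper-quartile factors (32.9% of all genes lower) and 31 with no scaling factors (30.9%), where the median of all genes shifted to -0.24 in both cases.

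Of the core of the NADH-oxidising module, 2 of 3 genes fell in splenic C26 and all 3 in subcutaneous C26. Over all genes 23.9% and 23.1% fell. Ndufs1, the largest subunit and a carrier of iron-sulfur clusters, had 308, 268, 267 and 206 CPM in splenic C26 libraries, against 470.2, 424, 454 and 432 CPM in sham libraries. It had 145, 161, 407 and 174 CPM in subcutaneous C26 libraries, against 409, 405, 494 and 462 CPM in control libraries. Splenic C26 and sham did not overlap, while subcutaneous C26 replicate 3 lay at the low edge of the control range and the other 3 libraries far below it. The log2 fold changes were -0.76 ± 0.26 in splenic C26 (adjusted p = 0.0233, and 0.0606 without replicate 4) and -0.996 ± 0.26 in subcutaneous C26 (adjusted p = 0.00606), the largest fall among core subunits in each comparison. Ndufv2, which also holds an iron-sulfur cluster, changed by -0.59 ± 0.19 in splenic C26 (adjusted p = 0.0185) and by -0.74 ± 0.19 in subcutaneous C26 (adjusted p = 0.00613). Ndufv1, which binds NADH and the flavin, averaged 257 ± 24.1 CPM in splenic C26 and 297 ± 2.88 CPM in sham (SD, n = 4 each). It did not pass there (-0.21 ± 0.20, adjusted p = 0.391) and fell in subcutaneous C26 (-0.58 ± 0.20, adjusted p = 0.0257, and 0.0719 when only these 8 libraries were fitted).

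Of the core of the quinone-reducing module, Ndufs8, an iron-sulfur subunit, fell in both, by 0.55 ± 0.20 on the log2 scale in splenic C26 (adjusted p = 0.0302) and by 0.84 ± 0.20 in subcutaneous C26 (adjusted p = 0.00348). In splenic C26 the adjusted p of Ndufs8 was 0.0922 without the 4 libraries set aside for transcripts of other tissues. Ndufs3 and Ndufs7 did not pass in splenic C26 (-0.23 ± 0.17, adjusted p = 0.260, and -0.15 ± 0.18, adjusted p = 0.474). Both fell in subcutaneous C26 (-0.43 ± 0.17, adjusted p = 0.0404, and -0.48 ± 0.18, adjusted p = 0.0344) and lost the call when only the 8 libraries of that comparison were fitted (adjusted p = 0.0771 and 0.0729).

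**Figure D3:**
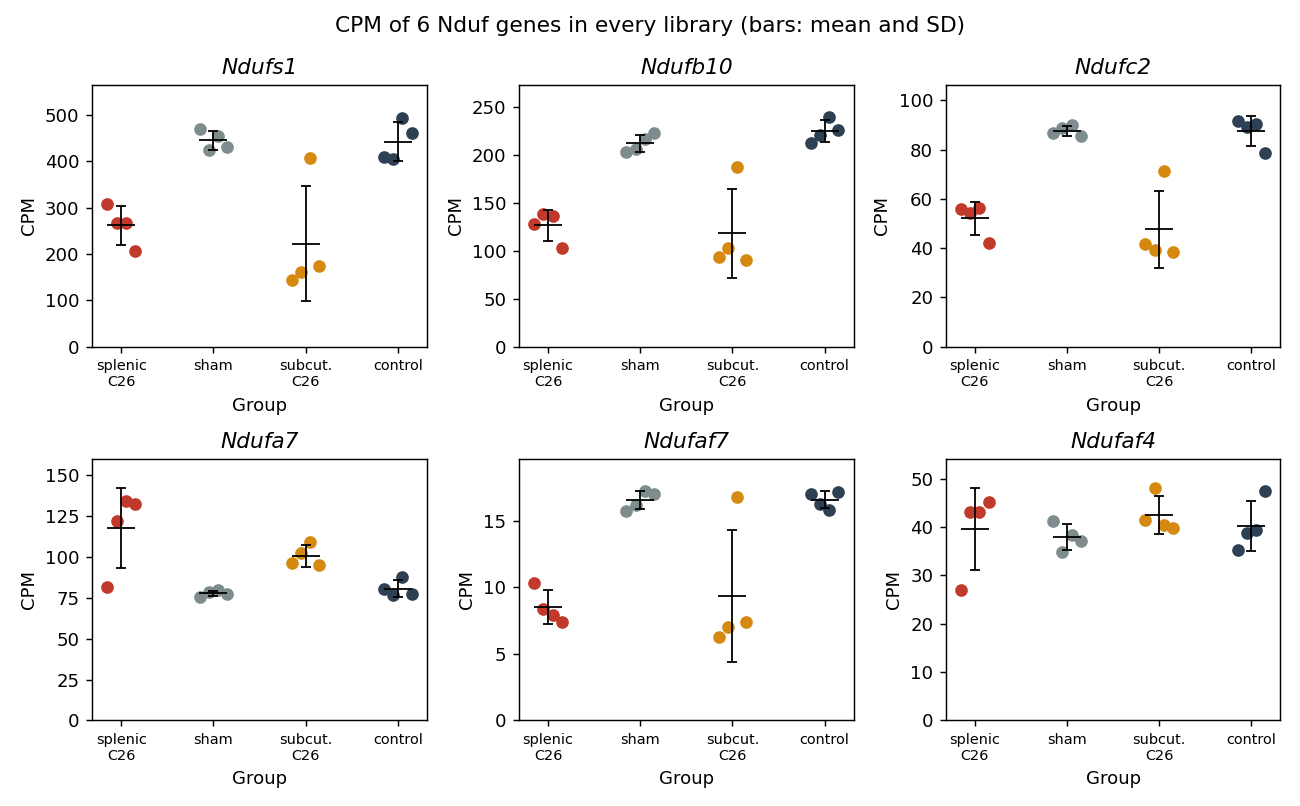
CPM of Ndufs1, Ndufb10, Ndufc2, Ndufa7, Ndufaf7 and Ndufaf4 in each library (points), with the mean and SD of each group of 4 (bars). Ndufs1, Ndufb10, Ndufc2 and Ndufaf7 are low in all splenic C26 libraries and lowest in subcutaneous C26 replicates 1, 2 and 4. Replicate 3 lies below every control library for Ndufb10 and Ndufc2 and inside the control range for Ndufs1 and Ndufaf7. Ndufa7 is higher in all 8 tumour libraries than in any library of the matching tumour-free group, and Ndufaf4 overlaps its tumour-free groups.

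Accessory subunits of the matrix arm were the most divided class. Of 9, Ndufv3 fell and Ndufa7 rose in splenic C26 (median -0.35), and 7 fell in subcutaneous C26 (median -0.60). The shares lower were 11.1% and 77.8%, beside 23.9% and 23.1% of all genes. Ndufv3, a subunit of the NADH module, had 62.3, 57.5, 65.9 and 60.2 CPM in splenic C26 libraries, against 95.4, 109, 99.0 and 101 CPM in sham libraries (-0.72 ± 0.23, adjusted p = 0.0188, and 0.0533 without the 4 libraries set aside for transcripts of other tissues). In subcutaneous C26 it changed by -0.86 ± 0.24 (adjusted p = 0.00788). Ndufa7, an accessory subunit of the matrix arm, went the other way. It had 81.6, 122, 134 and 133 CPM in splenic C26 libraries, against 75.8, 78.4, 79.5 and 77.2 CPM in sham libraries, and 96.4, 102, 109 and 94.8 CPM in subcutaneous C26 libraries, against 80.4, 76.7, 87.8 and 77.2 CPM in control libraries. Neither pair of groups overlapped, as for 21.1% of all genes upward in splenic C26 and 25.2% in subcutaneous C26. Ndufa7 rose in splenic C26 (0.60 ± 0.13, adjusted p = 0.00227), passing under all 26 other settings tried. Among those 26 the fit without a filter repeats the reported fit, since no gene had been filtered out. In subcutaneous C26 Ndufa7 did not pass (0.32 ± 0.13, adjusted p = 0.0566, from 0.00592 to 0.527 under the other settings). Ndufa2 had 1 splenic C26 library below, 1 inside and 2 above the sham range (0.04 ± 0.14, adjusted p = 0.819) and did not pass in subcutaneous C26 (-0.33 ± 0.14, adjusted p = 0.0711). The remaining 6, Ndufa5, Ndufa6, Ndufa9, Ndufa12, Ndufs4 and Ndufs6, changed by -0.45 to -0.12 in splenic C26, where none passed, and by -0.77 to -0.45 in subcutaneous C26, where all passed.

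Accessory subunits of the membrane arm were the largest class. Of 18, 9 fell in splenic C26 (median -0.51) and 16 in subcutaneous C26 (median -0.77), and none rose. The shares lower were 50% and 88.9%, beside 23.9% and 23.1% of all genes. Ndufc2 had 55.8, 54.3, 56.2 and 42.2 CPM in splenic C26 libraries, against 86.8, 88.7, 89.9 and 85.4 CPM in sham libraries. It had 41.8, 39.2, 71.2 and 38.3 CPM in subcutaneous C26 libraries, against 91.8, 89.3, 90.4 and 78.5 CPM in control libraries. No library of either tumour group reached its tumour-free range. The log2 fold change was -0.75 ± 0.17 in splenic C26 (adjusted p = 0.00250) and -0.88 ± 0.17 in subcutaneous C26 (adjusted p = 0.00101), the smallest adjusted p of any subunit there. Ndufb10 stood at 59.7% of its sham mean in splenic C26 (-0.74 ± 0.19, adjusted p = 0.00565) and at 52.7% of its control mean in subcutaneous C26 (-0.92 ± 0.19, adjusted p = 0.00162). Ndufc1 varied little among splenic C26 libraries, at 46.9 ± 0.88 CPM against 78.5 ± 2.17 CPM in sham (SD, n = 4 each), with changes of -0.74 ± 0.21 in splenic C26 (adjusted p = 0.00806) and -0.90 ± 0.21 in subcutaneous C26 (adjusted p = 0.00265). Ndufa11 fell by 0.52 ± 0.20 on the log2 scale in splenic C26 (adjusted p = 0.0354) and by 0.86 ± 0.20 in subcutaneous C26 (adjusted p = 0.00268). At the other end of this class were Ndufb4, Ndufa10 and Ndufa3. Ndufb4 did not pass in splenic C26 (-0.06 ± 0.14, adjusted p = 0.731) and fell in subcutaneous C26 (-0.39 ± 0.14, adjusted p = 0.0333). Ndufa10 and Ndufa3 passed in neither, at -0.07 ± 0.17 and 0.19 ± 0.15 in splenic C26 and at -0.34 ± 0.17 and -0.13 ± 0.15 in subcutaneous C26.

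Ndufab1 and the Nduf names tied to cytochrome oxidase completed the subunits. Ndufab1, the mitochondrial acyl carrier protein, which also serves fatty acid synthesis, averaged 45.5 ± 4.40 CPM in splenic C26 and 68.6 ± 1.2 CPM in sham, and 40.2 ± 14.2 CPM in subcutaneous C26 and 69.7 ± 3.20 CPM in control (SD, n = 4 each). It fell in both comparisons (-0.59 ± 0.17, adjusted p = 0.0102, in splenic C26 and -0.80 ± 0.17, adjusted p = 0.00191, in subcutaneous C26). Ndufa4 was named as a complex I subunit and is now placed in cytochrome c oxidase. It did not pass in splenic C26 (-0.27 ± 0.18, adjusted p = 0.217) and fell in subcutaneous C26 (-0.69 ± 0.18, adjusted p = 0.00666). Ndufa4l2, its hypoxia-inducible relative, had 5.52, 4.15, 3.34 and 2.49 CPM in splenic C26 libraries, against 5.26, 5.28, 5.95 and 4.94 CPM in sham libraries, and 2.45, 1.87, 3.36 and 2.26 CPM in subcutaneous C26 libraries, against 5.76, 6.37, 6.25 and 4.10 CPM in control libraries. Splenic C26 replicate 1 overlapped sham, and all 4 subcutaneous C26 libraries lay below control. It did not pass in splenic C26 (-0.46 ± 0.24, adjusted p = 0.112) and fell in subcutaneous C26 (-1.18 ± 0.24, adjusted p = 0.00138), the largest fall among the 44 genes.

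Assembly factors split into those that fell in both tumour groups and those that did not. Ndufaf7, a mitochondrial arginine methyltransferase, had 10.3, 8.38, 7.94 and 7.38 CPM in splenic C26 libraries, against 15.8, 16.2, 17.2 and 17.04 CPM in sham libraries. It had 6.27, 7.01, 16.8 and 7.41 CPM in subcutaneous C26 libraries, against 17.03, 16.3, 15.8 and 17.2 CPM in control libraries. Splenic C26 libraries lay apart from sham, and subcutaneous C26 replicate 3 lay inside the control range. Ndufaf7 changed by -0.96 ± 0.24 in splenic C26 (adjusted p = 0.00447), the largest fall there, and by -0.83 ± 0.24 in subcutaneous C26 (adjusted p = 0.0107). Ndufaf5, which in human cells hydroxylates an arginine of NDUFS7, had 19.4, 17.1, 16.4 and 10.3 CPM in splenic C26 libraries, against 30.6, 28.3, 30.6 and 32.2 CPM in sham libraries. Its changes were -0.95 ± 0.24 in splenic C26 (adjusted p = 0.00429) and -0.95 ± 0.24 in subcutaneous C26 (adjusted p = 0.00429). Ndufaf1, part of the complex that builds the membrane arm, stood at 20.3 ± 4.20 CPM in splenic C26 and 36.6 ± 0.83 CPM in sham (SD, n = 4 each), with changes of -0.85 ± 0.21 in splenic C26 (adjusted p = 0.00453) and -0.85 ± 0.21 in subcutaneous C26 (adjusted p = 0.00489). Ndufaf6, needed early in assembly, changed by -0.67 ± 0.20 in splenic C26 (adjusted p = 0.0105) and by -0.90 ± 0.20 in subcutaneous C26 (adjusted p = 0.00197).

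The other 3 assembly factors differed from those 4. Ndufaf2, a relative of the subunit Ndufa12 that binds late intermediates, averaged 4.64 ± 0.34 CPM in splenic C26 and 6.46 ± 0.54 CPM in sham, and 4.99 ± 1.32 CPM in subcutaneous C26 and 6.56 ± 0.16 CPM in control (SD, n = 4 each). It fell in splenic C26 (-0.48 ± 0.16, adjusted p = 0.0238, and 0.0732 without the 4 libraries set aside for transcripts of other tissues) and did not pass in subcutaneous C26 (-0.40 ± 0.16, adjusted p = 0.0549), where it passed with DESeq2 (adjusted p = 0.0184). A gene on the opposite strand, B230220B15Rik, covers 65.6% of its exons, and without a stated strand setting for the counting, reads of the 2 genes cannot be told apart. Ndufaf3 and Ndufaf4 act together on the quinone module. Ndufaf3 changed by -0.17 ± 0.13 in splenic C26 (adjusted p = 0.300) and by -0.28 ± 0.13 in subcutaneous C26 (adjusted p = 0.0913). Ndufaf4 had 26.9, 43.0, 43.1 and 45.2 CPM in splenic C26 libraries, against 41.2, 34.9, 38.3 and 37.1 CPM in sham libraries, and 41.5, 48.1, 40.3 and 39.7 CPM in subcutaneous C26 libraries, against 35.2, 38.7, 39.3 and 47.4 CPM in control libraries. In splenic C26, 1 library lay below and 3 above the sham range, and in subcutaneous C26 all but replicate 2 lay inside the control range. Its changes were 0.06 ± 0.15 (adjusted p = 0.739) and 0.08 ± 0.15 (adjusted p = 0.671), and both took a negative sign with upper-quartile factors (-0.16 each).

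**Figure D4:**
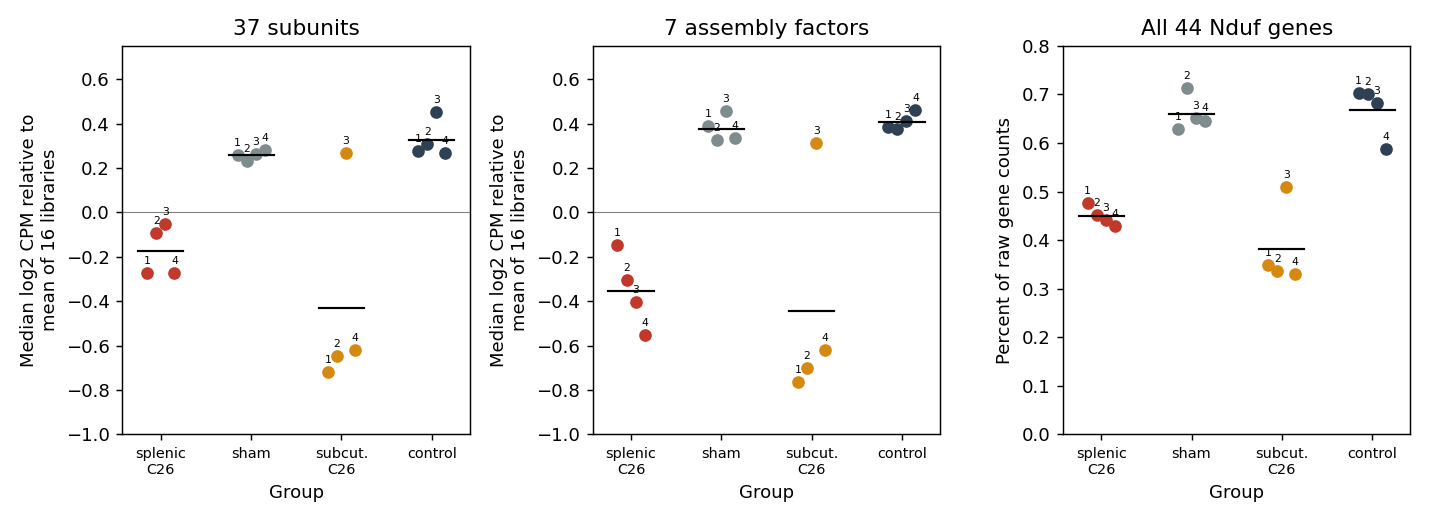
Median log2 CPM relative to the mean of all 16 libraries for the 37 subunits (left) and the 7 assembly factors (middle), and the share of raw gene counts on all 44 Nduf genes in percent (right), for each library (points, with replicate number) and group mean (lines). After scaling, subcutaneous C26 replicate 3 lies with the control libraries at 0.27 for subunits, and by raw share, at 0.510%, it lies below them.

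Set side by side, assembly factors stood lower relative to subunits in 3 of 4 splenic C26 libraries. The median assembly factor minus the median subunit, on the log2 scale relative to the 16-library mean, was 0.13, -0.21, -0.35 and -0.28 in splenic C26 libraries, against 0.05 to 0.19 in sham libraries. It was -0.04, -0.06, 0.04 and 0.00 in subcutaneous C26 libraries, against -0.04 to 0.19 in control libraries. Splenic C26 replicate 1 lay inside the sham range and the other 3 below it, and subcutaneous C26 overlapped control. This difference of medians was not tested.

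No Nduf gene passed the test of the difference between the 2 tumour effects. edgeR called 0 of the 44 and 0 of all 13320 genes (0%), and at an unadjusted p under 0.05 0 of the 44 and 851 of all. DESeq2, limma-voom and limma on the deposited log2 values also called 0 of the 44, and over all genes DESeq2 called 84 higher and 2 lower while both limma fits called 0. The estimated difference, splenic C26 effect less subcutaneous C26 effect, was positive for all 37 subunits (0.13 to 0.72, median 0.27, median SE 0.26) and between -0.13 and 0.23 for assembly factors (median -0.01), against a median of -0.01 for all genes. The subunits share the same libraries, so their common sign is 1 observation. Without subcutaneous C26 replicate 3 the medians were 0.54 and 0.30. The smallest p belonged to Ndufa4l2 (0.72 ± 0.34, adjusted p = 0.780), Ndufb4 (0.33 ± 0.20, adjusted p = 0.874) and Ndufa2 (0.37 ± 0.20, adjusted p = 0.853). A larger fall in subcutaneous C26 than in splenic C26 was therefore not shown for any member.

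No Nduf gene passed between the tumour-free groups. In sham against control edgeR called 0 of the 44 (0 at an unadjusted p under 0.05, and 0 with DESeq2 and limma), against 0.00751% of all genes, that is 1 gene, and 285 genes at an unadjusted p under 0.05. The medians were -0.06 for subunits and -0.02 for assembly factors, and the range over subunits was -0.13 to 0.01. Ndufa3, Ndufa5 and Ndufa2 had the smallest p, at -0.12 ± 0.15, -0.13 ± 0.18 and -0.10 ± 0.14, all with adjusted p of 1. No gene of the 44 had groups without overlap, against 2.39% of all genes downward and 2.46% upward. Operation and title prefix cannot be told apart here.

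Some genes that start back to back with an Nduf gene moved in the other direction, and others fell with it. Within 1000 bases of the start, 18 members had a measured neighbour on the opposite strand. Of the 7 of these members that fell in splenic C26, the neighbours numbered 1 that fell, 3 that rose and 3 that did not pass, and of the 14 that fell in subcutaneous C26, 4, 5 and 5. With so few pairs and the shares of all genes given above (23.9% lower and 28.1% higher in splenic C26, 23.1% and 27.0% in subcutaneous C26), these counts are not set apart from other genes, and the pairs are described singly. Ercc8, beside Ndufaf2, fell with its Nduf gene in splenic C26 (-0.44 ± 0.17). In subcutaneous C26 the neighbours that fell were Phf14 beside Ndufa4 (-0.41 ± 0.14), Mrpl47 beside Ndufb5 (-0.36 ± 0.11), Tatdn1 beside Ndufb9 (-0.51 ± 0.14) and Kbtbd4 beside Ndufs3 (-0.54 ± 0.20). Ndufaf7 starts 70 bases from Cebpz, a nucleolar protein gene of ribosome production. Cebpz had 55.4, 96.0, 78.3 and 69.1 CPM in splenic C26 libraries, against 39.5, 33.5, 35.5 and 35.7 CPM in sham libraries, and rose in both comparisons (1.05 ± 0.15, adjusted p = 0.000157, in splenic C26 and 1.30 ± 0.15, adjusted p = 4.85e-05, in subcutaneous C26). Eef1b2, a translation elongation factor gene whose start overlaps that of Ndufs1, changed on the log2 scale by 0.55 ± 0.14 (adjusted p = 0.00384) in splenic C26 and by 0.61 ± 0.14 (adjusted p = 0.00224) in subcutaneous C26. Asb15, a muscle gene for a ubiquitin ligase adaptor that starts 131 bases from Ndufa5, rose by 1.01 ± 0.23 on the log2 scale in splenic C26 (adjusted p = 0.00245) and by 1.40 ± 0.23 in subcutaneous C26 (adjusted p = 0.000357). Ndufa7, the member that rose, starts 10 bases from Rps28, a ribosomal protein gene. Rps28 had 45.1, 88.5, 82.9 and 108 CPM in splenic C26 libraries, against 43.9, 43.71, 43.0 and 43.72 CPM in sham libraries, and rose, with a log2 fold change of 0.90 ± 0.20 (adjusted p = 0.00214) in splenic C26 and of 0.81 ± 0.20 (adjusted p = 0.00412) in subcutaneous C26. Splenic C26 replicate 1 was the lowest of its group for Ndufa7 and Rps28 alike. No exon of Ndufa7 overlaps another annotated gene. Exons of 19 members do overlap another gene, and for 7 the overlap exceeded 10% of their exons: Ndufaf2, Ndufb6 (39%), Ndufa13 (30%), Ndufb9 (19.5%), Ndufb11 (12.9%), Ndufb5 (12.3%) and Ndufa2 (11.5%), whose counts are uncertain to that extent.

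**Figure D5:**
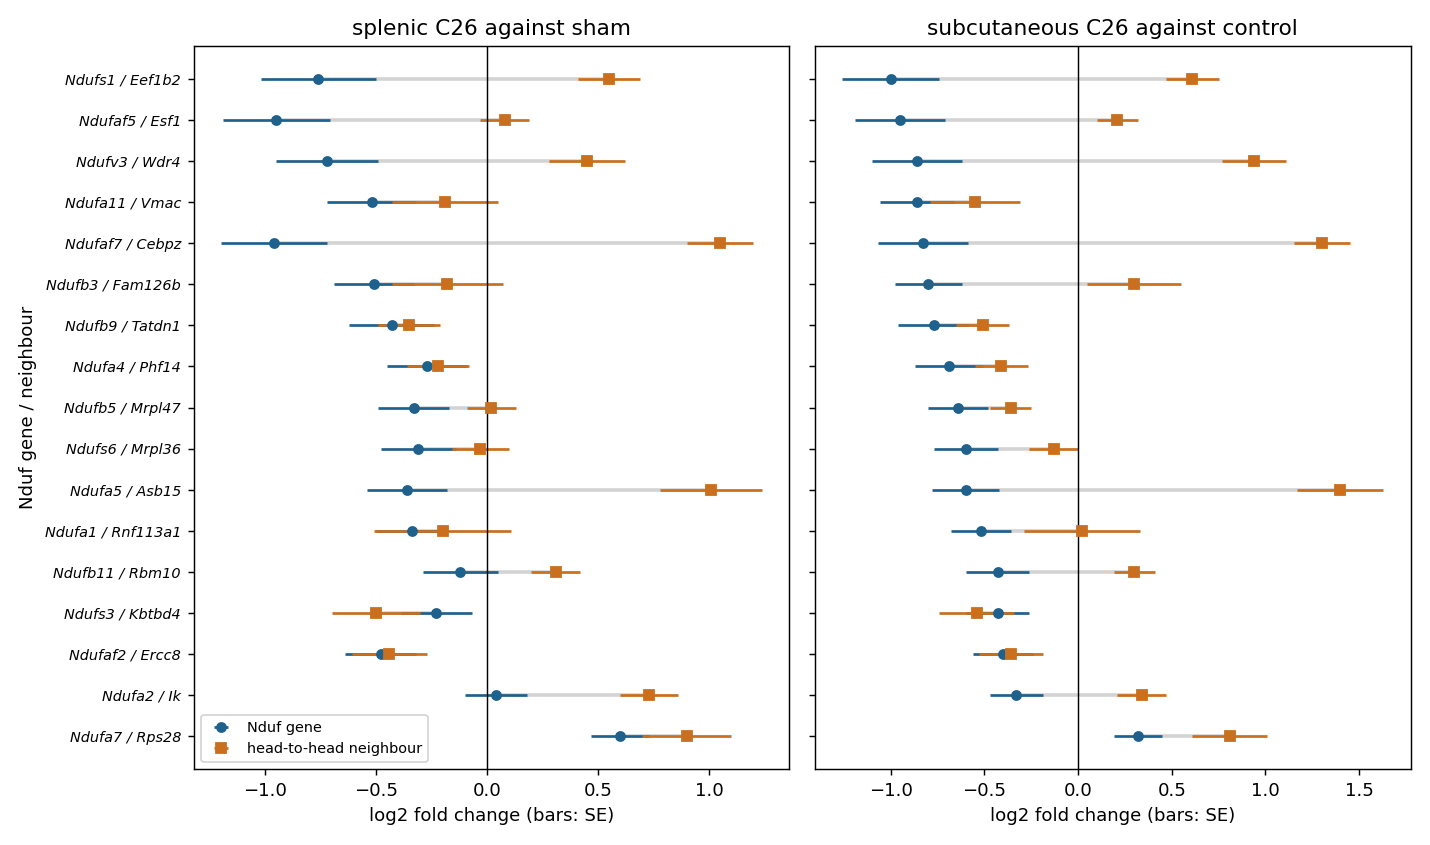
log2 fold change (points) with standard error (bars) of Nduf genes (blue circles) and of the measured gene that starts head to head within 1000 bases (orange squares), in splenic C26 against sham (left) and subcutaneous C26 against control (right). Cebpz, Eef1b2, Asb15 and Wdr4 lie right of 0 beside Nduf partners left of 0, and Ndufa7 and Rps28 both lie right of 0. Ercc8, Phf14, Tatdn1 and Kbtbd4 lie left of 0 with their Nduf partners.

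Other genes of complex I biogenesis and of the respiratory chain were counted from fixed lists. Of 13 further assembly factors 10 were measured. Timmdc1, which works on the membrane arm, fell in splenic C26 (-0.76 ± 0.22, adjusted p = 0.0107), and none of the other 9 passed, the next being Tmem126b (-0.46 ± 0.20, adjusted p = 0.0583). In subcutaneous C26 Timmdc1 (-0.59 ± 0.22, adjusted p = 0.0370) and Tmem70 (-0.44 ± 0.17, adjusted p = 0.0426), which also serves ATP synthase assembly, fell and 8 did not pass. The medians of the 10 were -0.19 in each comparison, and 10% and 20% were lower, against 23.9% and 23.1% of all genes. The 7 subunits encoded in mitochondrial DNA are not analysed here. Of 3 genes linked to respiratory supercomplexes, Higd1a fell in splenic C26 (-0.69 ± 0.17, adjusted p = 0.00407) and in subcutaneous C26 (-0.88 ± 0.17, adjusted p = 0.00102), Higd2a fell in subcutaneous C26 (-0.57 ± 0.20, adjusted p = 0.0293), and Cox7a2l passed in neither. Of 39 measured subunits of complexes II to V, 7 fell and Atp5g2 rose in splenic C26 (17.9% lower, median -0.35). Over all genes 23.9% were lower there, so that count is no excess. In subcutaneous C26 33 fell and Atp5g2 rose (84.6% lower, median -0.65), against 23.1% of all genes lower. The members with the smallest p were Atp5g2 (0.61 ± 0.15, adjusted p = 0.00319) and Sdhd (-0.80 ± 0.20, adjusted p = 0.00425) in splenic C26, and Sdhd (-0.90 ± 0.20, adjusted p = 0.00224) and Cyc1 (-1.25 ± 0.30, adjusted p = 0.00335) in subcutaneous C26.

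Regulators of respiratory chain genes went in both directions. Of 12, 7 rose and 2 fell in splenic C26 (58.3% and 16.7%), beside 28.1% and 23.9% of all genes. In subcutaneous C26 4 rose and 2 fell (33.3% and 16.7%), shares near the 27.0% and 23.1% of all genes. Yy1 had 57.9, 69.8, 76.7 and 76.0 CPM in splenic C26 libraries, against 40.9, 39.2, 39.6 and 41.1 CPM in sham libraries, and rose, with a log2 fold change of 0.80 ± 0.12 (adjusted p = 0.000174) in splenic C26 and of 0.97 ± 0.12 (adjusted p = 5.94e-05) in subcutaneous C26. Pprc1, a coactivator related to PGC-1, rose too, with a log2 fold change of 1.40 ± 0.22 (adjusted p = 0.000269) in splenic C26 and of 1.59 ± 0.22 (adjusted p = 0.000134) in subcutaneous C26. The 2 that fell in both were Esrra and the coactivator gene Ppargc1b. Esrra had 39.3, 25.5, 33.5 and 15.8 CPM in splenic C26 libraries, against 75.6, 72.9, 72.6 and 82.2 CPM in sham libraries, and 19.5, 20.0, 45.5 and 13.4 CPM in subcutaneous C26 libraries, against 66.3, 71.4, 87.0 and 75.6 CPM in control libraries. All 8 tumour libraries lay below all 8 tumour-free libraries, and replicate 3 was the highest of the subcutaneous C26 libraries for Esrra as for the Nduf genes. Esrra changed by -1.41 in splenic C26 (adjusted p = 0.00226) and by -1.61 in subcutaneous C26 (adjusted p = 0.00109), and Ppargc1b by -1.27 (adjusted p = 0.00178) and -1.74 (adjusted p = 0.000273). Both were singled out after their values were seen. Ppargc1a, the gene of PGC-1 alpha, had 47.7, 54.4, 637 and 59.9 CPM in splenic C26 libraries, against 55.7, 58.6, 53.5 and 49.3 CPM in sham libraries, and its call in splenic C26 (1.88, adjusted p = 0.0329) goes with the high value of replicate 3 alone.

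Markers of muscle fibres and of other cells moved along with the groups, and their part in the Nduf results was not tested. Beside the counts below, 23.9% of all genes fell and 28.1% rose in splenic C26, and 23.1% and 27.0% in subcutaneous C26. The 5 fibre markers Ckm, Acta1, Mylpf, Tnnc2 and Actn3 were abundant in every library. They summed to 42700 to 55600 CPM in splenic C26 and 53600 to 73600 CPM in sham, and to 31100, 36700, 93500 and 43000 CPM in subcutaneous C26 replicates 1 to 4 and 57000 to 86400 CPM in control, and 2 of the 5 fell in each comparison. Subcutaneous C26 replicate 3 was thus high for these 5 markers as well as for Nduf genes. The 9 fast fibre markers, which include Mylpf, Tnnc2 and Actn3, summed to 73700, 86100, 195000 and 108000 CPM in replicates 1 to 4. In control they summed to 93100 to 157000 CPM. Of 8 slow fibre markers none passed in splenic C26 (sums of 146 to 791 CPM in splenic C26 and 272 to 1220 CPM in sham) and 5 fell in subcutaneous C26. Their sums were 129, 119, 89.6 and 79.5 CPM in subcutaneous C26 replicates 1 to 4 and 86.7 to 687 CPM in control, so replicate 3 was not high for slow fibre markers. Of 5 fibroblast markers 4 fell in splenic C26 and 3 in subcutaneous C26. Of 8 neutrophil markers 7 rose in splenic C26, with a sum of 173 CPM in replicate 3 and 3.61 to 16.7 CPM in the other 3 libraries, against 0.562 to 0.889 CPM in sham. Of 10 hepatocyte markers 7 rose in splenic C26, where replicate 1 held 234 CPM and the other 3 libraries 28 to 50 CPM, against 32.7 to 93.2 CPM in sham, and 9 fell in subcutaneous C26, with 68.1 to 150 CPM there and 103 to 318 CPM in control.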

How the data were processed

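RNA of quadriceps muscle was extracted with Trizol and the miRNeasy kit, read from both ends on a HiSeq instrument (75 bases each), aligned with STAR and counted per gene with featureCounts, per the labels' protocols and descriptions, with all isolation and sequencing done at one time. The submitters' processing notes name FastQC, STAR, edgeR and mm10, with neither versions nor a strand setting given in the sources used here. The authors deposited raw counts per gene and a log2 table that matched log2 CPM with TMM scaling up to a constant (residual SD 0.00684 over 6200 genes). Every gene in the table exceeded 0.5 CPM in at least 4 libraries, and all 44 members were tested. Library totals were 25.9 to 34.9 M counts, and no libraries of a group agreed within sampling noise (smallest chi-square per degree of freedom 12.8).

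Groups came from the tumour label. edgeR 4.0.16 in R 4.3.3 fitted 1 quasi-likelihood model with TMM factors (0.802 to 1.21) and robust dispersion to all 16 libraries with 4 group means. The contrasts were splenic C26 against sham, subcutaneous C26 against control, the difference between these effects, and sham against control, with Benjamini-Hochberg adjustment over 13320 genes. Alternatives used DESeq2 1.42.0, limma 3.58.1, other scalings and filters, only the libraries compared, and each library left out. Fits were tested on simulated counts first.

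The members and lists were chosen with earlier results of these data known. Named with values were core subunits, every assembly factor, Ndufab1, Ndufa4, Ndufa4l2, the 4 accessory subunits with the lowest and the 4 with the highest log2 fold change per tumour comparison, the 3 members of smallest p in the other contrasts, and 2 genes of smallest p per other list. Levels per kilobase used the main transcript's length. 1 member is counted in totals and not reported by name here. Promoter windows are from RefSeq, GRCm38.p6.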

Additional observations from a re-analysis of the deposited data

Results flagged for a closer look

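Subcutaneous C26 replicate 3 stood far from the other 3 libraries of its group for 29 Nduf genes, in each case as the highest library. A library was singled out where its gap to the nearest other library of its group, divided by the group's range, was above Dixon's 95% critical value. Chance flags about 1 in 20 groups, and 38 of the 176 groups of 4 values were flagged, though genes share libraries. The rule was applied to Nduf genes alone. How often this library would be flagged over all genes is not known, so the count is not particular to Nduf genes. The CPM of this library were, for core subunits, Ndufs1 (406.6), Ndufs8 (102.8), Ndufv1 (325.8) and Ndufv2 (289.4). For genes named Ndufa they were Ndufa11 (81.83), Ndufa12 (123.2), Ndufa13 (191.4), Ndufa4 (284.3), Ndufa5 (126.1), Ndufa6 (125.1), Ndufa8 (148.9) and Ndufa9 (224.5). For genes named Ndufb they were Ndufb10 (187.7), Ndufb11 (180.6), Ndufb2 (71.19), Ndufb3 (68.95), Ndufb6 (60.8), Ndufb7 (88.46), Ndufb8 (255.8) and Ndufb9 (260.1), and for other accessory subunits Ndufc1 (75.08), Ndufc2 (71.15), Ndufs4 (117), Ndufs6 (104.8) and Ndufv3 (100.8). For assembly factors they were Ndufaf1 (33.09), Ndufaf5 (28.45), Ndufaf6 (11.8) and Ndufaf7 (16.77). The same library had the highest summed fibre markers of its group (93500 CPM), and the part of this in the values was not tested.

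The other flagged values were single libraries of single genes. In splenic C26 they were Ndufaf4 in replicate 1 (26.93 CPM, low), Ndufa11 in replicate 3 (78.64 CPM, high) and Ndufc2 in replicate 4 (42.2 CPM, low). In sham they were Ndufa13 (151.1 CPM), Ndufa9 (195.8 CPM) and Ndufab1 (66.8 CPM), all low in replicate 2, and Ndufa11 in replicate 4 (96.43 CPM, high). In control they were Ndufaf1 in replicate 2 (34.58 CPM, low) and Ndufs8 in replicate 3 (127.0 CPM, high).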

How the results depend on the processing

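Directions of the counts and medians over subunits and assembly factors held under every alternative run for the 2 tumour comparisons. In these 2 comparisons 243 alternative values of the counts and medians stayed near the reported one and 17 moved. Among single named genes, with every contrast counted, 1312 values kept direction and side of the threshold, 42 gained a call, 32 lost one and 15 changed sign. All the values that changed were from the 2 tumour comparisons. The totals that stayed the same include the fit without a filter, which kept all 13320 genes and so repeats the reported fit. With upper-quartile scaling, splenic C26 against sham gave 26 subunits lower (70.3%, beside 32.9% of all genes). The medians were -0.649 for subunits and -0.869 for assembly factors. With no scaling factors it gave 31 subunits lower (83.8%, beside 30.9% of all genes) and medians of -0.660 and -0.8735. These 2 scalings shifted the median of all genes to -0.236 and -0.244 in splenic C26 and to -0.26 and -0.219 in subcutaneous C26, and the share of calls that were higher to 38.5% and 35.8% in splenic C26 and to 34.9% and 36.2% in subcutaneous C26, against 54.0% and 53.9% with TMM. Fitting only the 8 libraries of a comparison gave 21 subunits lower in splenic C26 (56.8%, beside 19.5% of all genes). In subcutaneous C26 it gave 26 lower (70.3%, beside 24.5% of all genes) and 1 Nduf gene higher, beside 28.4% of all genes. Leaving out the 4 libraries set aside for transcripts of other tissues gave 1 higher there and a splenic C26 assembly factor median of -0.866.

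Leaving out 1 library at a time gave 8 to 25 subunits lower and 1 to 2 genes higher in splenic C26, with a subunit median of -0.466 to -0.372. Over all genes these fits gave 18.5% to 30.4% lower and 24.5% to 31.2% higher there. In subcutaneous C26 they gave 25 (without control replicate 3) to 35 subunits lower and 0 to 1 genes higher. The medians there were -1.055 to -0.627 for subunits and -1.193 to -0.709 for assembly factors. Over all genes 17.4% to 28% were lower and 20.6% to 28.6% higher in subcutaneous C26. The background thus moved with the library left out. The median difference between tumour effects ranged over 0.186 to 0.542 for subunits and -0.071 to 0.305 for assembly factors.

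Signs changed only for genes that passed in neither direction under TMM in that comparison. With upper-quartile scaling the splenic C26 values were -0.164 for Ndufaf4, -0.1785 for Ndufa2 and -0.035 for Ndufa3, and Ndufaf4 in subcutaneous C26 was -0.160. With no scaling factors they were -0.175, -0.192 and -0.047 in splenic C26, and -0.098 for Ndufaf4 in subcutaneous C26. With a minimum of 5 CPM in 4 libraries they were -0.0073 for Ndufaf4 and -0.025 for Ndufa2 in splenic C26 and -0.0143 for Ndufaf4 in subcutaneous C26. Without 1 library the ranges in splenic C26 were -0.184 to 0.055 for Ndufb4, -0.012 to 0.146 for Ndufa2 and -0.0016 to 0.218 for Ndufaf4, and in subcutaneous C26 -0.020 to 0.170 for Ndufaf4. The cause of these changes was not tested. No paired analysis was possible because the sample titles give the groups no shared replicate numbers. Member counts per library reached down to 59, so counting error limits the lowest members beside the spread of the 4 libraries per group.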
